A study of Mus musculus with 4 samples.

Results

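Sebaceous glands open into the hair follicle and fill their cells with fat until the cells burst and release it as sebum. The 10 genes described here are Elovl3, Far2, Krt79, Scd1, Scd3, Acsbg1, Mgst1, Mc5r, Soat1 and Plin2, listed by name for their known part in sebaceous cells or in the lipid they make. Probe sets that the array's annotation assigns to a gene were taken, and where a gene had several the one with the highest 4-array mean stood for it, which gave values for 9 of the 10 among 18193 genes in all. Soat1, which esterifies cholesterol, had no probe set under its name or gene ID in the annotation used and is not analysed here. The 9 genes had 13 probe sets.

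RNA from skin of wild-type female BALB/c mice had been hybridised to 4 arrays for 3' expression, 2 from skin treated with MC903 and 2 from skin treated with ethanol, the vehicle. MC903 is calcipotriol, an analogue of vitamin D that causes inflammation when put on mouse skin. All the mice, controls included, had first received ovalbumin together with MC903 on the ear skin and then ovalbumin by mouth; MC903 or ethanol followed, and then another oral dose. The vehicle group is therefore skin of mice that had met MC903 before, and the mice's age, the site of the later treatment and whether each array is 1 animal are not given in the sources used here. The p-values below therefore reflect no more than how these samples vary, and that variation may be technical.

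Sebum is rich in wax esters, triglycerides and very long fatty chains. Acyl chains are made and lengthened by elongases, given a double bond by stearoyl-CoA desaturases, activated by acyl-CoA synthetases, reduced to fatty alcohols by reductases and joined into esters, which are kept in droplets coated by perilipins. In mouse skin, loss of some of these enzymes is known to leave the coat and the skin barrier defective. In a piece of whole skin, fewer sebaceous cells and less RNA per cell cannot be told apart.

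Promoter sequences are shown for Plin2, which had the largest absolute difference between the groups, and for Scd3 and Far2. Scd3 and Far2 had the largest differences between the MC903 arrays among the genes whose promoter entries were used. Promoter entries of a single chromosome were left out. Entries of 7 of the 10 genes were used, and none of Elovl3, Scd1 and Mc5r, whether left out or absent from the start. The sequences shown are the 250 bases before and the first 50 after the start site in RefSeq, build GRCm38.p6. They come from another mouse strain than the one studied. Both strands were searched for 5 short motifs, and capitals mark the matches. AGGTCA is a nuclear receptor half-site and GGGCGG is the GC box. The CCAAT box and the TATA box (TATAAA) are general promoter elements, and TCACNCCAC is a form of the element that sterol regulatory factors bind.
Plin2, chr4:86670010-86670309, minus strand: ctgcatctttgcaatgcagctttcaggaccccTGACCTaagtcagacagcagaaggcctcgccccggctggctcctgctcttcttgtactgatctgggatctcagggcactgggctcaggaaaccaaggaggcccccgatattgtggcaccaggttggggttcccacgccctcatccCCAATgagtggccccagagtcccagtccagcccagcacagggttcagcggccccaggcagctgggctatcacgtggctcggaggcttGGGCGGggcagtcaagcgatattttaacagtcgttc
Scd3, chr19:44203038-44203337, plus strand: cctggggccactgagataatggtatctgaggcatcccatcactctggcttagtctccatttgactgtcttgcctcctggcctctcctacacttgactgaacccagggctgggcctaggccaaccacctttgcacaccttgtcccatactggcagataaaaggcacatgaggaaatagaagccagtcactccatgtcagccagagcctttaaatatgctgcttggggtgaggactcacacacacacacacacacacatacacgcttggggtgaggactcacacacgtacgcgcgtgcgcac
Far2, chr6:148047166-148047465, plus strand: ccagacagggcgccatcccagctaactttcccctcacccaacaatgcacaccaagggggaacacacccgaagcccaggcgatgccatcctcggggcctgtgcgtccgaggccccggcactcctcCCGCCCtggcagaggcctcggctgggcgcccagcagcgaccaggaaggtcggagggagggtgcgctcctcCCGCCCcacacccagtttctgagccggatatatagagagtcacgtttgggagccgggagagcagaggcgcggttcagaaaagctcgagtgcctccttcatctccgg
The Plin2 window held AGGTCA on the opposite strand 218 bases before the start site, CCAAT 73 bases before it and GGGCGG 15 bases after it. The Far2 window held GGGCGG on the opposite strand 126 and 56 bases before the start site, and the Scd3 window held none of the 5 motifs. Of all 32851 promoter windows in the table, 16.3% held AGGTCA, 37.4% CCAAT, 13.6% TATAAA, 1.24% TCACNCCAC and 35.7% GGGCGG. The motifs do not overlap each other in these windows, and a match describes the letters only.

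The sebaceous genes did not separate MC903-treated from vehicle-treated skin as a group. For 6 of the 9 the 2 MC903 arrays differed more from each other than the treatments did, as was so for 51.2% of all genes. Plin2 had the largest absolute difference between the groups, with signals about 1.53-fold higher with MC903. For Plin2 and Krt79 the groups differed by more than the arrays within either group, and the share of all genes that do so was not counted. For Krt79 this was lost after quantile normalization, with 0.01 between the groups against 0.02 between the MC903 arrays. Of the 9 genes, 3 (Krt79, Scd1 and Plin2) had both MC903 arrays above both vehicle arrays and 1 (Acsbg1) had both below, while the groups overlapped for 5. After quantile normalization 1 was higher in this sense, and after centring 0 were lower. Over all genes 21.6% were higher and 28.2% lower in this sense, so the counts of the sebaceous genes lie near the background. With each array centred on its median, 5227 of all genes were higher and 3827 lower, against 3921 and 5123 as deposited.

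The groups were compared on log2(signal + 16) by limma, with Benjamini-Hochberg adjustment over all genes and a threshold of 0.05. It called 0 of the 9 genes, with adjusted p-values from 0.240 to 0.981, and called 0% of all genes. With a prior variance that follows the signal, limma again called 0 of the 9, the smallest adjusted p being 0.0865, against 0.923% of all genes. Without adjustment, 1 of the 9 (Plin2) had a p below 0.05 upward and 0 downward, against 6.82% and 8.39% of all genes. The median difference of the 9 genes was 0.09, beside -0.04 over all genes, and the SD of their median between arrays of a group was 0.26. With 2 arrays a side, 0.333 is the smallest two-sided p an exact permutation test could give.

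**Figure D1:**
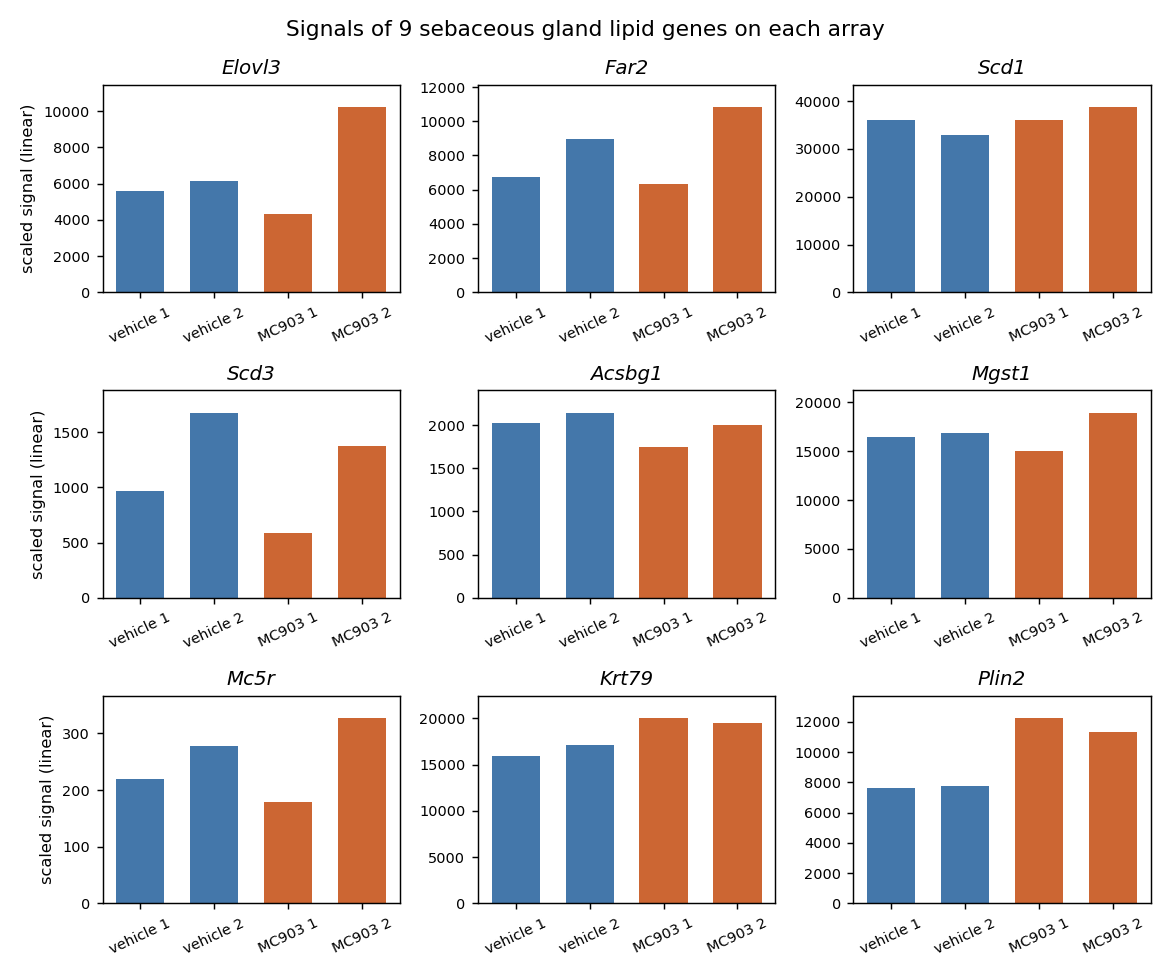
Linear scaled signals of the 9 sebaceous gland lipid genes on the 2 vehicle arrays (blue) and the 2 MC903 arrays (orange), each bar 1 array and each panel on its own axis from 0. Elovl3 reached 10214 on MC903 array 2 against 4293 on MC903 array 1, whereas both MC903 bars of Plin2 (12239 and 11318) stand above both vehicle bars (7641 and 7737).

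Elovl3 encodes an elongase of very long saturated and monounsaturated fatty acids that is a hallmark of sebaceous cells. Its signals were 5582 and 6125 on the vehicle arrays against 4293 and 10214 on the MC903 arrays. The MC903 arrays were the lowest and the highest of the 4, so that the vehicle values lay between them. The difference between the groups was 0.18 ± 0.45 (SE, n = 2 per group; 95% interval -1.04 to 1.40; limma, adjusted p = 0.878). Between the MC903 arrays Elovl3 differed by 1.25 on the log2 scale, or 2.37-fold, and between the vehicle arrays by 0.13. Without MC903 replicate 2 the group difference became -0.44, and without MC903 replicate 1 it became 0.80.

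Far2, a reductase that makes fatty alcohols for wax esters, showed the same order of arrays in the MC903 group. Its signals were 6771 and 8981 on the vehicle arrays against 6359 and 10826 on the MC903 arrays, again the lowest and the highest of the 4. The group difference was 0.09 ± 0.33 (95% interval -0.80 to 0.98; limma, adjusted p = 0.921). A second probe set of Far2 stood at 2263 and 3205 on the vehicle arrays against 1745 and 3048 on the MC903 arrays, and there the group difference was -0.22. Both probe sets were higher on array 2 than on array 1 in both groups, by 0.77 and 0.80 in MC903 and by 0.41 and 0.50 in vehicle.

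The desaturases Scd1 and Scd3 put a double bond into saturated acyl chains. Scd1 is the main form of skin, and Scd3 is largely a form of the sebaceous gland. Because Scd genes resemble each other closely, a probe set of one may also pick up another, so their values are uncertain to that extent. Scd3 stood at 971 and 1675 on the vehicle arrays against 589 and 1376 on the MC903 arrays. Each group has 1 low and 1 high array, and the groups overlap. Its group difference was -0.49 ± 0.51 (95% interval -1.87 to 0.88; limma, adjusted p = 0.682), the lowest among the 9. The other probe set of Scd3 ran in parallel, with 406 and 761 on the vehicle arrays, 257 and 576 on the MC903 arrays and a group difference of -0.51. Scd3 was higher on array 2 in both groups, by 1.20 in MC903 and 0.78 in vehicle. Without MC903 replicate 1 its group difference was 0.11, and without MC903 replicate 2 it was -1.09.

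Scd1 was close to the top of the scale. The probe set that represents it had signals of 35989 and 32937 on the vehicle arrays against 36067 and 38740 on the MC903 arrays, between 71.9% and 82.7% of the highest signal of its array, where differences can be compressed. Both MC903 values were above both vehicle values, by as little as 36067 against 35989. The group difference was 0.12 ± 0.16 (95% interval -0.31 to 0.55; limma, adjusted p = 0.759). A dimmer probe set of Scd1 gave 4123 and 4613 on the vehicle arrays against 3114 and 5737 on the MC903 arrays, with a group difference of -0.04. On that probe set the MC903 arrays differed by 0.88, against 0.10 on the bright one, and the dimmer one had the order of arrays of Elovl3, with the MC903 arrays lowest and highest.

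Acsbg1, an acyl-CoA synthetase that activates long and very long fatty acids, stood at 2025 and 2144 on the vehicle arrays against 1741 and 1996 on the MC903 arrays. It was the 1 gene of the 9 with both MC903 arrays below both vehicle arrays, although the upper MC903 value came within a small distance of the lower vehicle value. The difference was -0.16 ± 0.17 (95% interval -0.61 to 0.29; limma, adjusted p = 0.685). Centring the arrays on their medians ended this separation.

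Mgst1, a microsomal glutathione transferase abundant in sebaceous cells, stood at 16492 and 16856 on the vehicle arrays against 14985 and 18930 on the MC903 arrays. The vehicle values lay between the MC903 values, and the group difference was 0.01 ± 0.19 (95% interval -0.49 to 0.52; limma, adjusted p = 0.980). Its second probe set ran from 1.08 to 22.7, no higher than the TrpnX controls, which spanned 1.55 to 24.0; these control probe sets match bacterial transcripts and served as a guide to background. That probe set therefore gives no level for Mgst1.

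Mc5r encodes the melanocortin receptor through which sebaceous secretion is stimulated. It was the dimmest of the 9, at 220 and 278 on the vehicle arrays against 180 and 327 on the MC903 arrays, above the TrpnX controls on each array. Vehicle again lay within the span of the MC903 arrays. The group difference was -0.02 ± 0.33 (95% interval -0.92 to 0.87; limma, adjusted p = 0.981). The MC903 arrays differed by 0.81 and the vehicle arrays by 0.32, array 2 being higher in both groups.

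Krt79, a keratin of the sebaceous duct and the upper hair follicle, makes no lipid. Its signals were 15896 and 17128 on the vehicle arrays against 20029 and 19528 on the MC903 arrays, and the groups did not overlap. The MC903 arrays were nearly equal, array 2 minus array 1 being -0.04, or 0.02 after quantile normalization. The group difference was 0.26 ± 0.15 (95% interval -0.16 to 0.68; limma, adjusted p = 0.485), but 0.01 after quantile normalization. Of 8 genes listed as markers of the upper follicle and duct, Krt79 among them, 4 were higher in both MC903 arrays and 3 lower in both. The largest absolute differences there were those of Sox9, a transcription factor of follicle stem cells (-0.80 ± 0.22; limma, adjusted p = 0.259), and Krt17, a keratin of follicles and wounded epidermis (0.80 ± 0.33; limma, adjusted p = 0.361), followed by the defensin Defb6 (0.44 ± 0.15; limma, adjusted p = 0.308). The summed signal of these markers was 77883 and 76641 on the vehicle arrays against 101388 and 88858 on the MC903 arrays.

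Plin2 coats lipid droplets in many cell types, sebaceous cells, fat-laden macrophages and keratinocytes among them. Its signals were 7641 and 7737 on the vehicle arrays against 12239 and 11318 on the MC903 arrays. Within each group the arrays were close, and every MC903 value was above every vehicle value. The difference was 0.61 ± 0.15 (95% interval 0.20 to 1.03), with an unadjusted p of 0.0142 and an adjusted p of 0.240 by limma. It was 0.67 in MC903 array 1 and 0.56 in MC903 array 2, each against the mean of the vehicle arrays, so neither array carried it alone. Of all genes, 3126 had a larger absolute difference.

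Many markers of macrophages and adipocytes, which also hold lipid droplets, were higher in the MC903 arrays too. All 12 macrophage markers had both MC903 arrays above both vehicle arrays, with summed signals of 25815 and 24402 on the vehicle arrays against 60197 and 35448 on the MC903 arrays. Of 11 adipocyte markers, 7 were higher in both and 1 (Ucp1) was lower in both, with summed signals of 42460 and 38508 on the vehicle arrays against 38059 and 57102 on the MC903 arrays. No marker of either list was at 0, but Ucp1 was within the range of the TrpnX controls on both MC903 arrays. The macrophage median was 1.59 in MC903 array 1 and 0.62 in array 2, and the adipocyte median was 0.33 and 0.89. Of 8 suprabasal keratinocyte markers, 4 were higher in both MC903 arrays and 0 were lower in both, while the groups overlapped for 4. Over all genes 21.6% were higher in both and 28.2% lower in both. With either prior, limma called 0 of the macrophage markers and 0 of the adipocyte markers. Of the keratinocyte markers it called 1 higher with the prior that follows the signal and 0 with the constant prior. The part of any of these cell types in the Plin2 signal was not tested.

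**Figure D2:**
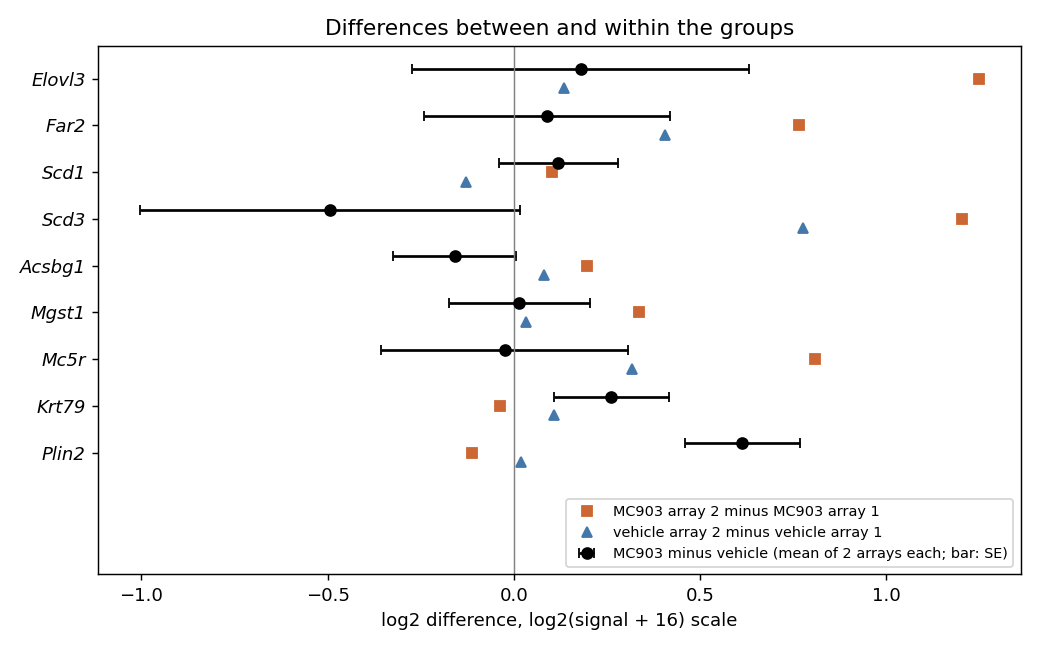
Log2 differences of the 9 genes: MC903 minus vehicle (black, with limma's SE), MC903 array 2 minus array 1 (orange squares) and vehicle array 2 minus array 1 (blue triangles). The orange square lies farther from 0 than the black point for 6 of 9 genes, Elovl3 (1.25 against 0.18) among them, and nearer to 0 for Plin2 (-0.11 against 0.61).

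The comparison of the 2 MC903 arrays has 1 array on each side and therefore no test, and the vehicle arrays stand beside it as a measure of spread. Array 2 was above array 1 for 7 of 9 genes in MC903, where 51.9% of all genes were, and for 8 of 9 in vehicle, where 49.5% of all genes were. Elovl3 and Scd3 were at least 2-fold higher on MC903 array 2, where 4.62% of all genes were, and 0 of 9 were at least 2-fold lower, where 3.46% were. Between the vehicle arrays 0 of 9 reached 2-fold upward, beside 2.28% of all genes. The median MC903 difference between arrays was 0.34 for the 9 genes and 0.02 for all genes, and it was 0.66 when the probe sets of a gene were averaged, a value set by Mgst1 with its background-level probe set. The median vehicle difference was 0.11 for the 9 genes and -0.0034 for all genes. The difference between the MC903 arrays was larger than that between the vehicle arrays for 7 of the 9 genes, beside 58.6% of all genes, so neither this count nor the 6 of 9 above sets these genes apart. Krt79 and Plin2 were the genes of the 9 with the lower signal on MC903 array 2, Krt79 by the smaller margin and not after quantile normalization or centring.

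Other genes of the same chemistry were taken from 4 lists covering fatty acid synthesis and desaturation, esters and ether lipids, fatty acid uptake and activation, and lipid droplets and lipolysis. Of their 61 genes 54 were measured. Among these, 10 were higher in both MC903 arrays and 6 lower in both, beside 21.6% and 28.2% of all genes. limma called 0 of the 54 with either prior, the smallest adjusted p-values being 0.274 and 0.140. Without adjustment, limma gave a p below 0.05 upward for 4 and downward for 3, beside 6.82% and 8.39% of all genes. The median group difference of the 54 was -0.00073. Array 2 was above array 1 in MC903 for 43 of the 54, where 51.9% of all genes were. It was at least 2-fold higher for 7 and at least 2-fold lower for 0, beside 4.62% and 3.46% of all genes. The median MC903 difference between arrays was 0.42 for the 54, against 0.04 between the vehicle arrays. Elovl6, the elongase that turns palmitic into stearic chains, was picked from these 7 after its values were seen and stood at 15775 and 15858 on the vehicle arrays against 8450 and 20701 on the MC903 arrays.

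**Figure D3:**
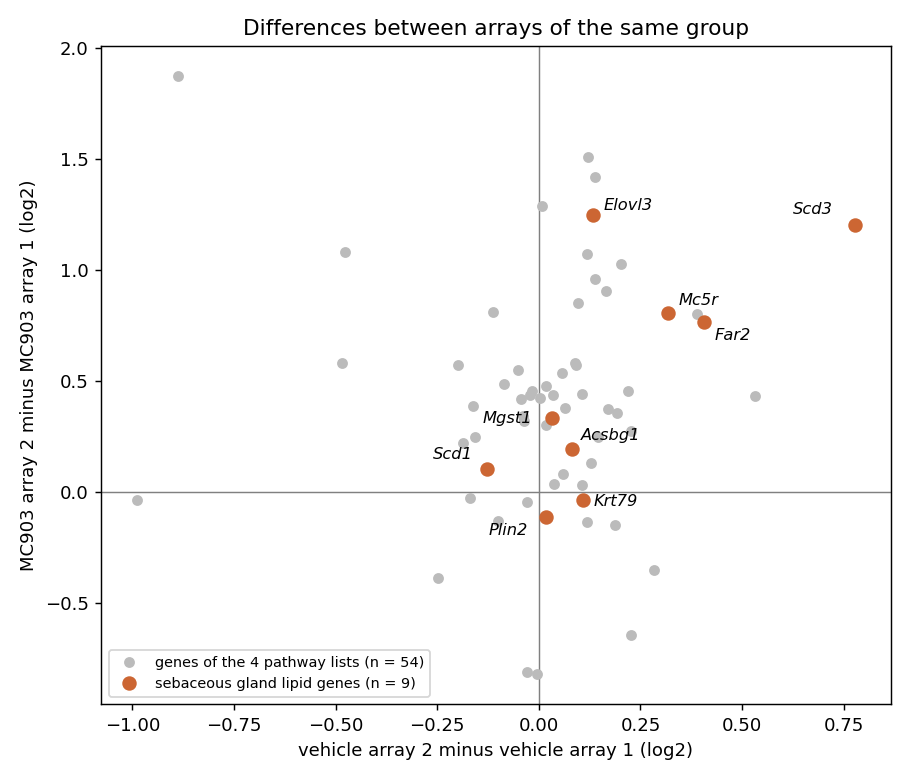
Each point is 1 gene, with the log2 difference between the vehicle arrays (array 2 minus array 1) across and that between the MC903 arrays upward; orange points are the 9 sebaceous gland lipid genes and grey points the 54 genes of the 4 lipid lists. Most points lie above the horizontal line, 7 of the 9 and 43 of the 54. Of the 9 genes 8 also lie to the right of the vertical line, where the vehicle difference is above 0, Scd3 (0.78) farthest.

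Among 18 genes of fatty acid synthesis, 2 were higher and 4 lower in both MC903 arrays, with a median difference of -0.05. The desaturase Fads2 differed by -0.78 ± 0.28 (limma, adjusted p = 0.317) from signals of 151 and 180 on the vehicle arrays against 116 and 68.4 on the MC903 arrays. The elongase Elovl7 differed by 0.64 ± 0.21 (limma, adjusted p = 0.300) from 5799 and 5945 on the vehicle arrays against 7847 and 10650 on the MC903 arrays. Acacb, an acetyl-CoA carboxylase, had the array order of Elovl3, with 797 and 878 on the vehicle arrays against 330 and 911 on the MC903 arrays.

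Among 10 genes of wax, sterol and glycerol esters, 0 were higher and 1, Gpam, was lower in both MC903 arrays, and the median difference was -0.07. Gpam, which starts glycerolipid synthesis, differed by -0.39 ± 0.25 (limma, adjusted p = 0.514), followed by Mogat2 (-0.30 ± 0.32) and Dgat1 (0.26 ± 0.28), which make di- and triglycerides. The wax synthases Awat1 and Awat2 were not listed in the annotation used and are not analysed here. Among 12 genes of fatty acid uptake and activation, 3 were higher and 0 lower in both, with a median of 0.08. Fabp4, a fatty acid carrier of adipocytes and macrophages, stood at 10854 and 9703 on the vehicle arrays against 14495 and 19012 on the MC903 arrays, a difference of 0.69 ± 0.21 (limma, adjusted p = 0.274). Acsm3, a medium-chain acyl-CoA synthetase, differed by -0.28 ± 0.40 (limma, adjusted p = 0.772). Fabp5, the epidermal fatty acid carrier, differed by 0.50 ± 0.16 (limma, adjusted p = 0.291), but it was the brightest probe set of MC903 array 1, where differences can be compressed.

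Among 14 genes of droplets and lipolysis, 5 were higher and 1 lower in both MC903 arrays, with a median of 0.10. Cidec, which enlarges droplets in fat cells, stood at 258 and 181 on the vehicle arrays against 276 and 603 on the MC903 arrays, a difference of 0.87 ± 0.43 (limma, adjusted p = 0.423). Lipe, the hormone-sensitive lipase, differed by 0.60 ± 0.22 (limma, adjusted p = 0.335). Pnpla3, a lipid droplet hydrolase, differed by -0.59 ± 0.19 (limma, adjusted p = 0.286). Cideb, counted among the 5 higher, was within the range of the TrpnX controls on each array, so its order carries no level. Cidec and Lipe belong to the adipocyte markers too.

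The sebaceous cells themselves were followed with 18 markers and regulators, of which 14 were measured and 4 are among the 9 genes. Of the 10 others, 1 was higher and 3 were lower in both MC903 arrays, with a median of -0.08. Prdm1, a transcriptional repressor, differed by 0.36 ± 0.17 (limma, adjusted p = 0.398), and Gata6, a transcription factor of the duct, by -0.30 ± 0.17 (limma, adjusted p = 0.480). Fa2h, which hydroxylates fatty acids in sebum lipids, stood at 11994 and 14326 on the vehicle arrays against 7269 and 15576 on the MC903 arrays, the order of arrays of Elovl3. Array 2 was above array 1 in MC903 for 5 of the 10 others, and their median MC903 difference between arrays was 0.09, below that of the 9 genes (0.34). The summed signal of all 14 was 57444 and 64934 on the vehicle arrays against 54003 and 71496 on the MC903 arrays. None was at 0, and Muc1 was within the range of the TrpnX controls on each array.

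Hair shaft and root sheath genes of the same skin did separate the groups. All 17 measured were lower in both MC903 arrays, beside 28.2% of all genes, with a median of -3.05. With the prior that follows the signal, limma called 11 of the 17 lower, beside 70 of all 18193 genes. With the constant prior it called 0 of the 17 and 0 of all genes. Their medians were -3.21 and -2.90 in the MC903 arrays. The vehicle arrays differed for this list, with all 17 genes higher on vehicle array 2, by a median of 0.80, and summed signals of 39422 and 67910. The sebaceous genes had -0.26 and 0.24 in the same arrays. The difference between these lists was not tested.

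**Figure D4:**
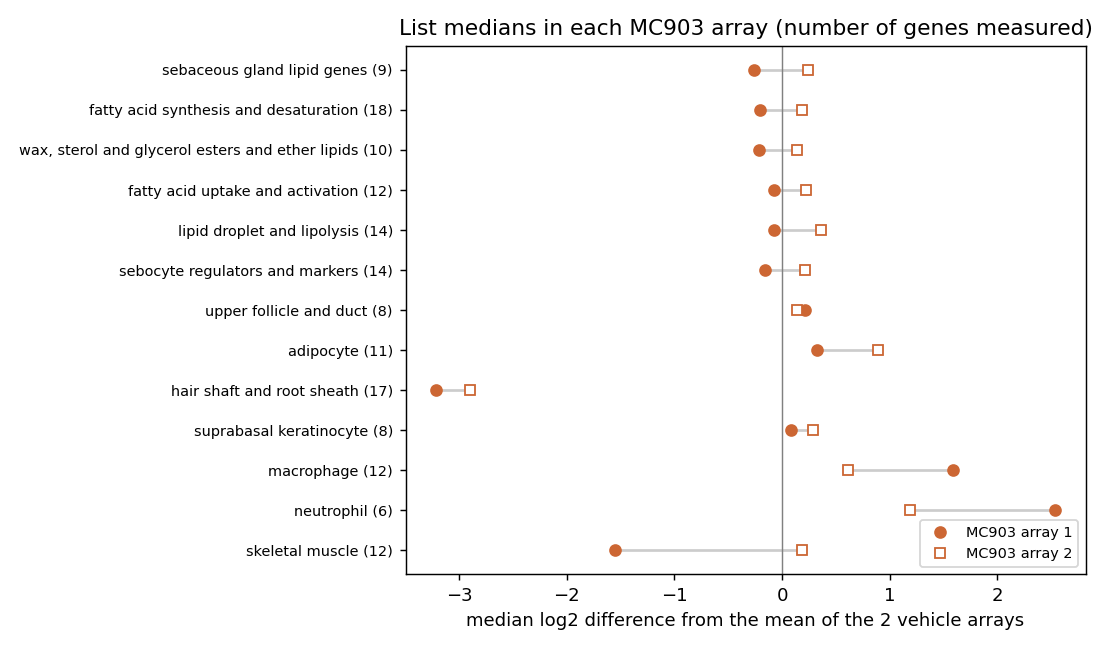
Median log2 difference of each gene list from the mean of the vehicle arrays, in MC903 array 1 (filled circles) and MC903 array 2 (open squares), with the number of genes measured in brackets. The sebaceous gland lipid genes straddle 0 (-0.26 and 0.24), as do the 4 lipid lists, while the hair list lies at -3.21 and -2.90.

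Other cell types also differed between the MC903 arrays. All 12 skeletal muscle markers were at least 2-fold higher on MC903 array 2, with summed signals of 64897 and 39313 on the vehicle arrays against 13597 and 50537 on the MC903 arrays. Adipocyte markers were higher on array 2 for 11 of 11, 3 of them at least 2-fold. Macrophage markers were higher on array 1 for 11 of 12, as were 5 of 6 neutrophil markers, whose summed signals were 930 and 1386 on the vehicle arrays against 64692 and 10432 on the MC903 arrays. Among suprabasal keratinocyte markers array 2 was above array 1 for 6 of 8, with a median of 0.25. The part of these tissues in the sebaceous values was not tested.

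The genes nearest to Elovl3 over the 4 arrays were Fosb, Has1, Aadacl4fm5, Abhd3 and Gdf5, at root mean square distances of 0.05 to 0.08 between log2 values centred on each gene's mean, among 11786 other genes with a mean signal of at least 100. With 4 arrays from 2 groups this describes a pattern of 4 values only. Of the other sebaceous genes, Mc5r (0.20, rank 71) and Far2 (0.20, rank 77) lay nearest to Elovl3, and Plin2 (0.53, rank 7031) lay farthest. The genes nearest to Plin2 were Rab27b, Maoa, Rinl, Plbd1 and Icam2, at distances of 0.01 to 0.04, and the nearest sebaceous gene was Krt79 (0.18, rank 814).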

How the data were processed

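Values for 45101 probe sets on 4 arrays had been deposited as linear intensity; 200 ng of RNA per sample had been labelled for 3' arrays, per the labels' protocols. The software that made the deposited intensity values was not given in the sources used here, but after trimming 2% at each end their mean was 500 on every array. Median signals ran from 90.2 to 109.

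Control probe sets (64), those with several symbols (932) and unnamed ones (9160) were left out; 34945 with 1 symbol gave 18193 genes, with symbols updated through the Entrez ID (34741 matched) to RefSeq, GRCm38.p6. A gene's probe set had the highest mean log2(signal + 16). limma 3.58.1 in R 4.3.3 (lmFit, eBayes, constant prior, 2 residual degrees of freedom) was fitted to all genes, and was tested on simulated data. Alternatives were other added constants, scalings, filters, probe set rules and priors, leaving out 1 array at a time and a replicate block. The rule choosing probe sets by mean signal was added after the data were seen. The replicate numbers are not stated to pair arrays.

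The genes, lists and tests were chosen with earlier results of these data known. All 10 genes were named, and from the lists those with the 3 largest absolute differences and, for Elovl3 and Plin2, the 5 nearest patterns; of marker lists shown for context mostly counts are given. Sequences are RefSeq's.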

Additional observations from a re-analysis of the deposited data

How the results depend on the processing

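Of the 9 genes, 0 were called under each of the 15 alternatives run, one of which (without the 50% dimmest genes) did not test Mc5r, and Plin2 kept its direction in the 14 that give a value per gene (0.45 to 0.69, adjusted p 0.0865 to 0.681), as did Krt79 (0.01 to 0.34) and Acsbg1 (-0.26 to -0.06). Quantile normalization turned Far2 to -0.046, Scd1 (and with it the median of the 9) to -0.0030, Mgst1 to -0.20 and Mc5r to 0.095, and left 1 gene higher in both MC903 arrays. Centring on array medians turned Mc5r to 0.056 and left 0 lower in both. Averaging probe sets turned Far2 to -0.066 and gave a median of 0.66 between the MC903 arrays. With 1 array left out, so that a lone array borrows its spread from the other group, the ranges were -0.44 to 0.80 for Elovl3, -0.29 to 0.47 for Far2, -1.09 to 0.11 for Scd3, -0.15 to 0.18 for Mgst1 and -0.43 to 0.38 for Mc5r. The median of the 9 then ran from -0.26 (without MC903 replicate 2) to 0.24 (without MC903 replicate 1). Among the 9, the count higher without overlap ran from 3 to 7 (without MC903 replicate 1). The count lower without overlap ran from 1 to 6 (6 without MC903 replicate 2, 2 without vehicle replicate 1). With fewer arrays any gene separates more easily, so these counts cannot be compared with those from all arrays. Of all 18193 genes, 6513 were higher in this sense without MC903 replicate 1, against 3921 with all arrays. Without MC903 replicate 2, 8037 of all genes were lower, against 5123. The cause of the shifts with 1 array left out was not tested.

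Over all genes limma called 0 higher and 0 lower, but 98 and 70 with the prior that follows the signal, 41 and 29 with an added constant of 64, 22 and 14 without the 25% dimmest genes, 101 and 89 without the 50% dimmest, 9 and 3 with averaged probe sets, 3 and 2 with the probe set of highest mean signal, and 3 and 0 with quantile normalization or with centring. With the replicate block 0 of the 9 were called and their median was 0.09; deviations of arrays with the same number correlated at r = -0.06 across genes, which are not independent replicates. With 2 arrays per group the 95% intervals of all but Plin2 among the 9 genes include 0. Scd1 stood high on the scale, where differences can be compressed.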
